A study of Mus musculus with 6 samples.

Results

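Sterol and fatty acid synthesis was followed through 33 genes, a fixed list matched by symbol among the 18071 genes with values. These genes were chosen for their roles in making cholesterol and fatty acids, with earlier results of these data known. Their shares set against all genes are therefore descriptive and not an independent test. The cells were mouse immature dendritic cells (imDCs), which sample their surroundings for antigen before they mature. They were grown from bone marrow of male C57BL/6 mice aged 7 weeks, for 7 days with IL-4 at 10 ng/ml and GM-CSF at 20 ng/ml, and enriched by CD11c selection. In the FSS group, 3 libraries came from imDCs under fluid shear stress, the drag of moving medium, of 10 dyn/cm2 for 3 h in a cone-plate device. The other 3 libraries came from static cultures of the same kind of cell, and the question was how expression differs between loaded and static cells. Nothing in the labels says whether replicates came from separate animals or cultures, so the p-values cover the spread among these libraries alone, and that spread may be technical.

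Cells build cholesterol from acetyl-CoA through the mevalonate arm, which ends in farnesyl diphosphate, and through squalene and lanosterol. Acetyl-CoA is also the building block of fatty acids, which are then elongated and desaturated. The transcription factors SREBP1 and SREBP2 drive most of these genes: the escort protein SCAP carries them from the endoplasmic reticulum to the Golgi for cleavage when sterols are low, and the INSIG proteins hold SCAP back when sterols are high. In dendritic cells and macrophages these lipids supply membrane, and oxysterols made from cholesterol act as signals through the receptor LXR.

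Expression was given as FPKM, fragments mapped to a gene per kilobase of transcript, scaled to a fixed number of mapped fragments. The libraries held summed values of 413898 to 470596 FPKM and 10390 to 10959 genes at 1 FPKM or more, and sequencing depth is unknown. The libraries numbered 3 in the labels stood apart from the other 4 on the first principal component (48.5% of variance). The libraries of one number deviated from their group means together, so differences are also given within numbers (pairs 1 to 3) and from a limma fit with the number as a block. The median difference of all genes, FSS minus static, was -0.12 log2, and 0.03 after the libraries were scaled by their median ratio, so scaled results stand beside the others. Markers of dendritic cells were high in every library (8 genes summing to 7736 to 8584 FPKM in static and 7043 to 8611 in FSS), although Flt3 and Cd209a stayed under 1 FPKM. Most of this sum came from Cd74, H2-Aa and H2-Ab1 (4509, 1311 and 961 FPKM in static replicate 1), so it says little of the other dendritic markers. The 8 macrophage markers summed to 389 to 477 FPKM in static and 450 to 554 in FSS, and the 8 neutrophil markers to 290 to 521 and 257 to 433. Few genes made up most of these sums too. In static replicate 1, Cd68 gave 274 of 470 FPKM, and S100a8 and S100a9 gave 154 and 99.1 of 290 FPKM. Ly6g did not exceed 1.33 FPKM in any library. Among 5 adipocyte markers, Lep and Cfd were listed at 0 in all 6 libraries, Plin1 and Adipoq did not exceed 0.37 FPKM, and Fabp4, which macrophages also express, made up nearly all of the sum (35.9 to 70.9 FPKM in static and 32.5 to 66.8 in FSS). With the block, 3 of 6 tested dendritic markers fell (Itgax, Zbtb46 and Ccr7), 1 of 8 macrophage markers fell (Fcgr1) and 2 rose (Adgre1 and Mertk), and 1 of 7 neutrophil markers fell (S100a8). The NK cell marker Gzma and the endothelial marker Pecam1 fell and the endothelial marker Kdr rose (limma adjusted p for these 10 between 0.00148 and 0.04). With block and scaling Itgax was no longer called (limma adjusted p = 0.514), and Cd68 (macrophage), Ngp and Ltf (neutrophil) and Mcpt8 (basophil) were called higher. With the block 50%, 12.5% and 14.3% of tested dendritic, macrophage and neutrophil markers fell, against 25.1% of all genes. Risers were 0%, 25% and 0%, against 7.73% of all genes. With scaling 16.3% of all genes fell and 19.6% rose. Markers of mast cells, B, T and NK cells and erythroid cells each summed to under 10 FPKM in every library, and those of endothelium to 11.7 to 17.99 FPKM in static and 8.30 to 13.4 in FSS. The part of these cell types in the results below was not tested, and in bulk RNA fewer cells of a type and less RNA per cell cannot be told apart.

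Under FSS, most genes of cholesterol synthesis stood lower, while those of fatty acid synthesis were divided. Among 17 cholesterol synthesis enzymes, 15 had a negative log2 difference and 2 a positive one (13 and 4 with scaling). Among 8 fatty acid enzymes tested, 5 were negative and 3 positive (4 and 4 with scaling). The 3 tested in fatty acid synthesis proper were all negative, also with scaling. The 5 of desaturation and polyunsaturated elongation gave 2 negative and 3 positive (1 and 4 with scaling). Over all 10899 genes tested, 7168 were negative (5036 with scaling). Of the 33 members, 21 were lower in all 3 pairs (63.6%, against 47.3% of all genes tested) and 5 were higher in all 3 (15.2%, against 17.1%). Hsd17b7, Fasn and Hmgcs1 showed the largest drops in the ratio of group means, to 0.348, 0.537 and 0.551 of static. Elovl5, Dhcr7, Insig2 and Mvd went the other way, to 1.43, 1.39, 1.36 and 1.29 times static. Without the block, 1 of the 32 members tested fell and none rose (limma, adjusted p under 0.05), against 0.862% and 0.853% of all genes. At an unadjusted p under 0.05, 6 were lower and 1 higher (18.8% and 3.13%, against 13.8% and 4.27% of all genes). With the block 13 members fell and 4 rose, shares of 40.6% and 12.5% against 25.1% and 7.73% of all genes. With the block and median-ratio scaling 8 fell and 5 rose, shares of 25% and 15.6% against 16.3% and 19.6%. The groups did not overlap for 11 members, all lower under FSS (34.4%, against 20.4% of all genes). None was higher without overlap, against 5.1% of all genes. Without both libraries numbered 3, the fit with the block placed 14 members lower and 5 higher, against 24.5% and 14.3% of the 10651 genes it tested. The 17 members called in all libraries with the block were called the same way there. That fit reuses libraries that gave those calls, so the match is not a separate test. With so few libraries, its calls also lean on the variance shared over genes.

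**Figure D1:**
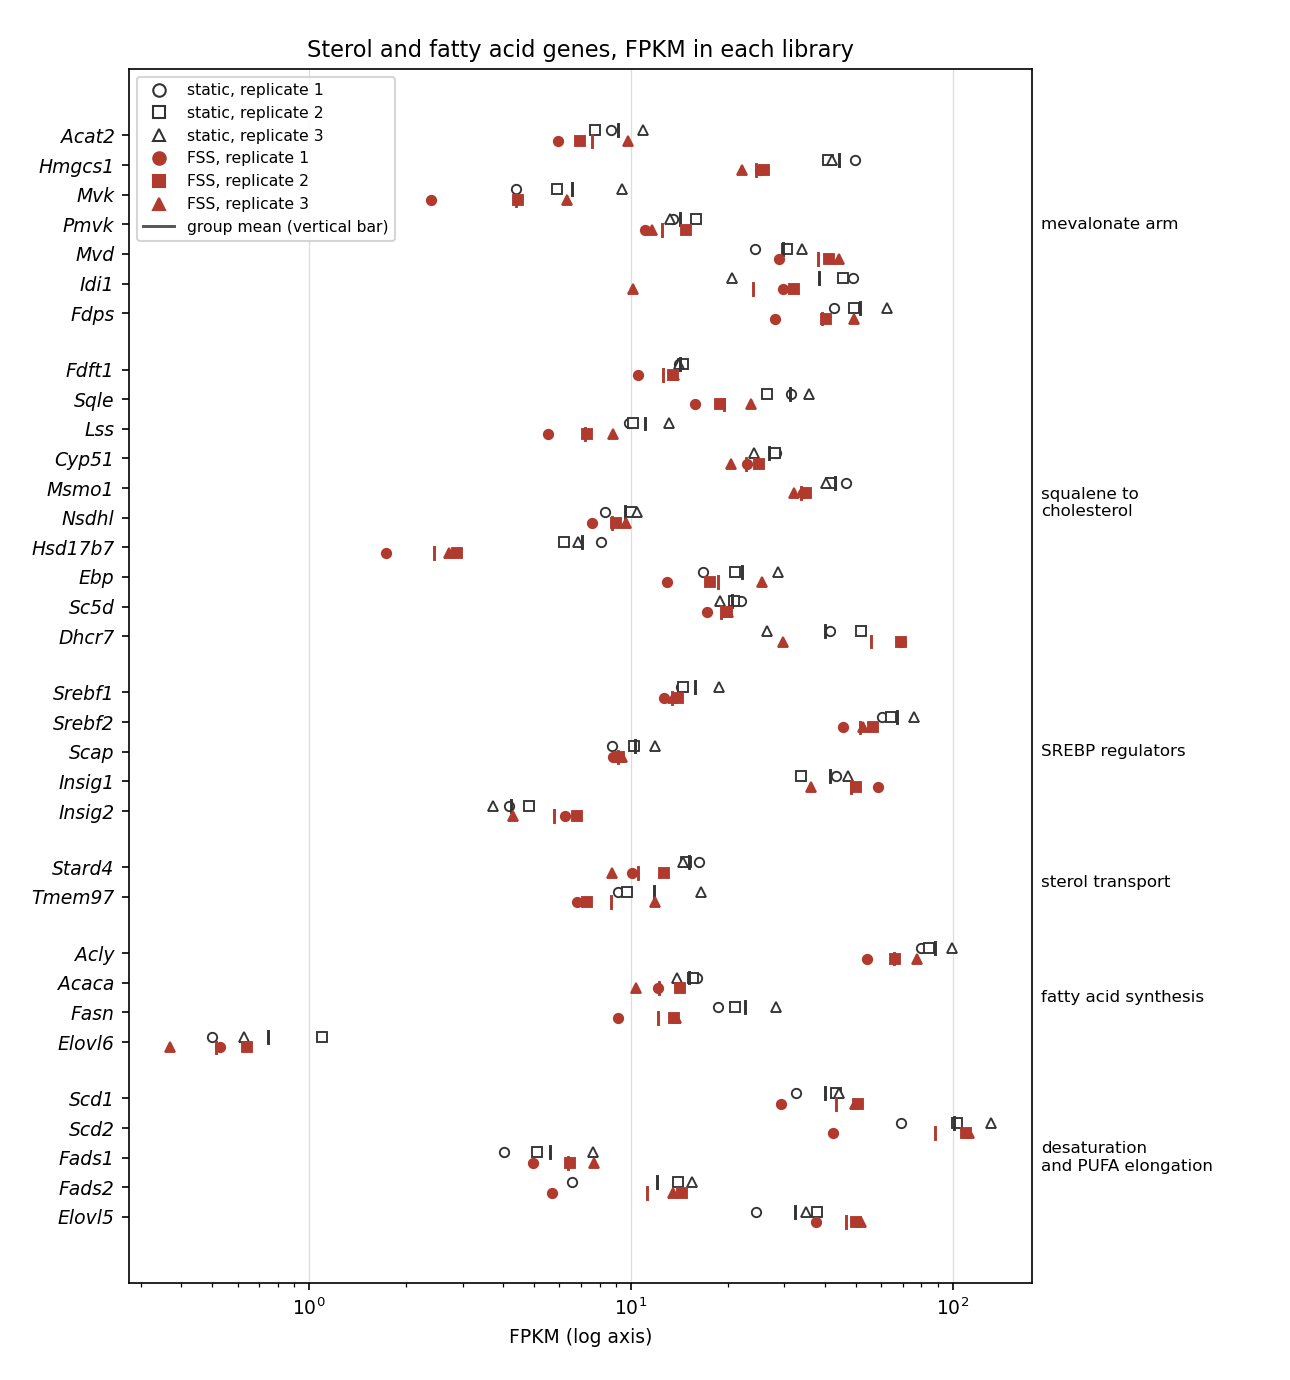
FPKM (log axis) of the 33 members in each of the 6 libraries, ordered by role; open symbols are static, filled symbols FSS, the shape gives the replicate number and vertical bars are group means. For Hmgcs1 the static libraries lie between 41.0 and 49.8 FPKM and the FSS libraries between 22.2 and 25.9, whereas for Dhcr7 and Idi1 the libraries numbered 3 lie below the others in both groups.

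The members covered a wide range of levels. On the FPKM scale, which is per length, Scd2 had the highest static mean (101 FPKM), followed by Acly (88.0), Srebf2 (67.0) and Fdps (51.6). The spread of Scd2 (SD 31.3) reached past the mean of Acly, so that neighbouring pair did not differ beyond its spread. Elovl6, an elongase of saturated fatty acids, was lowest at 0.743 ± 0.316 FPKM in static and 0.513 ± 0.136 in FSS (SD, n = 3), and alone among the members it missed the minimum of 1 FPKM in 3 libraries. The 33 members summed to 828, 906 and 977 FPKM in static replicates 1 to 3 and to 673, 867 and 814 FPKM in FSS replicates 1 to 3. These sums were lower under FSS in each pair, and the groups overlapped.

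Promoter sequence is shown for members that moved in opposite directions: Fasn, Hmgcs1 and Hsd17b7, which fell, and Elovl5 and Mvd, which rose, with the block alone and also after scaling. SREBPs bind sterol regulatory elements and work with the factors NF-Y, which binds CCAAT boxes, and SP1, which binds GC boxes. Each stretch holds the 200 bases before a RefSeq gene start (GRCm38.p6), written in the direction of the gene. Capitals mark the letters CCAAT on either strand (ATTGG where it lies on the opposite one), CACGTG, and the sterol regulatory element letters TCACNCCAC. The stretches lie at chr11:120824548-120824747 (Fasn, minus strand), chr13:119690151-119690350 (Hmgcs1, plus), chr1:169969206-169969405 (Hsd17b7, minus), chr9:77917165-77917364 (Elovl5, plus) and chr8:122443423-122443622 (Mvd, minus).
Fasn: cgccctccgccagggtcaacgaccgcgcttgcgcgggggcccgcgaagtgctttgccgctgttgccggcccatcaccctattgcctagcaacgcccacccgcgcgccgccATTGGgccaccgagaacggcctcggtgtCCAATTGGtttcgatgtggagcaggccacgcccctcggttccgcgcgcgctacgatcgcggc
Hmgcs1: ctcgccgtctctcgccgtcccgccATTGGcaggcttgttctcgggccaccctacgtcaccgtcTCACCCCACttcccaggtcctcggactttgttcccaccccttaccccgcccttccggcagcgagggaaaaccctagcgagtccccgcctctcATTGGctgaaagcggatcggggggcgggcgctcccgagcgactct
Hsd17b7: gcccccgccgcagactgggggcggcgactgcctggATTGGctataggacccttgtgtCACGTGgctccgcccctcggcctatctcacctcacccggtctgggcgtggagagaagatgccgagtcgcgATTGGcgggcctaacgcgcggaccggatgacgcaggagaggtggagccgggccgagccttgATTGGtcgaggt
Elovl5: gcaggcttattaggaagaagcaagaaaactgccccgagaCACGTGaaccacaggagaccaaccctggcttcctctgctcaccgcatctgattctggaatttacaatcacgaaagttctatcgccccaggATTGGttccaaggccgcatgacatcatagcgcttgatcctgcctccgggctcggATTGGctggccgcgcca
Mvd: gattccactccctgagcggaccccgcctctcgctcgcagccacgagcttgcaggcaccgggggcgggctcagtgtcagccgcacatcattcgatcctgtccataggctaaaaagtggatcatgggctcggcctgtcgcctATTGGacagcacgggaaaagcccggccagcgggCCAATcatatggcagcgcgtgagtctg

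All of these 5 stretches hold CCAAT boxes: 3 in Fasn, where a pair of them overlap, 3 in Hsd17b7, and 2 each in Hmgcs1, Elovl5 and Mvd. RefSeq windows of 300 bases (250 before and 50 after a start) were matched for 26 of the 33 members, and each motif was searched on both strands. CCAAT was found in 21 of these 26 members (80.8%), against 43.3% of the 8802 tested genes with a window and 37.4% of all 32851 windows. GGGCGG, the GC box, was found in 21 members (80.8%, against 68.3% of tested genes and 35.7% of windows), and CACGTG, an E-box, in 6 (23.1%, against 12.01% and 7.15%). Some members had more than 1 window, so their shares are not like those of windows. Of the 34 member windows, 22 held CCAAT, 25 GGGCGG and 7 CACGTG. TCACNCCAC was found in Hmgcs1 alone (3.85% of members, against 1.35% of tested genes and 1.24% of windows), at bases -137 to -129 from the start. Other spellings of the element were not searched, nor were the 7 members without a window. Of the 14 members with a window that were called with the block, in either direction, 14 held CCAAT, and of the 11 that were tested and not called 7 did, a split made after the values were seen. Those without it were Acaca, Acat2, Fads2 and Scap, and Elovl6, which was not tested, also lacked it. The called members Fdps, Sqle and Stard4 had no window and are not in this split. Whether CCAAT bears on the calls was not tested. A match describes the letters only.

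In the mevalonate arm, 4 of 7 genes fell with the block and 1 rose, against 3 and 1 with the block and scaling. With the block these are 57.1% and 14.3%, against 25.1% and 7.73% of all genes. With scaling they are 42.9% and 14.3%, against 16.3% and 19.6%. The median of the arm was -0.41 log2 (-0.24 scaled). Without the block none passed, with 1 of 7 lower at an unadjusted p under 0.05, against 13.8% of all genes. Hmgcs1, the synthase that makes HMG-CoA, read 49.8, 41.0 and 42.3 FPKM in static replicates 1 to 3 and 25.2, 25.9 and 22.2 FPKM in FSS replicates 1 to 3. The groups were far apart, and the FSS libraries lay close together. On the log2 scale it differed by -0.83 ± 0.16 without the block (SE; limma adjusted p = 0.0522) and by -0.83 ± 0.10 with it (limma adjusted p = 0.00177). With block and scaling the difference was smaller, -0.67 ± 0.092 (SE; limma adjusted p = 0.000914).

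Idi1, the isomerase that makes dimethylallyl diphosphate, read 49.0, 45.5 and 20.6 FPKM in static and 29.6, 32.2 and 10.2 FPKM in FSS. Both libraries numbered 3 were low, and FSS was below static in every pair, at 0.604, 0.707 and 0.494 of it. The gene was not called without the block (limma adjusted p = 0.498) and fell with it (adjusted p = 0.00377). Its difference without the block, -0.72 log2, became -1.10 without static replicate 3 and -0.21 without FSS replicate 3. Mvk, mevalonate kinase, went from 4.39, 5.90 and 9.38 FPKM to 2.39, 4.47 and 6.32 FPKM, with number 3 highest in both groups, and fell with the block (limma adjusted p = 0.0106). Without the block its difference of -0.50 log2 became -0.25, -0.20 and -0.76 when static 3, FSS 1 or FSS 3 was left out. Fdps, which joins the units into farnesyl diphosphate, had means of 51.6 ± 9.95 and 39.2 ± 10.7 FPKM (SD, n = 3). It fell with the block (limma adjusted p = 0.018), a call lost with scaling (adjusted p = 0.0998), and its difference of -0.41 log2 became -0.26 without static replicate 3 and -0.19 without FSS replicate 1.

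Mvd, the decarboxylase that makes the substrate of Idi1, read 24.4, 30.5 and 34.0 FPKM in static and 28.9, 41.2 and 44.4 FPKM in FSS. The groups overlapped, yet FSS was higher in each pair, by 1.18, 1.35 and 1.31 times. It rose with the block (limma adjusted p = 0.0256, and 0.00359 with scaling), and without it the adjusted p was 0.474. The difference without the block, 0.34 log2, became 0.21 without static 1, 0.53 without FSS 1 and 0.22 without FSS 3. Pmvk, the kinase just before it, and Acat2, a cytosolic thiolase that joins acetyl-CoA units, were not called, with log2 differences of -0.18 and -0.25 (limma adjusted p = 0.183 and 0.109 with the block).

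From squalene to cholesterol, 4 of 10 genes fell with the block and 1 rose (3 and 1 with scaling). With the block these are 40% and 10%, against 25.1% and 7.73% of all genes. With scaling they are 30% and 10%, against 16.3% and 19.6%. The median was -0.24 log2 (-0.08 scaled). In 5 of the 10 the groups did not overlap, all lower under FSS (50%, against 20.4% of all genes). Without the block 1 fell (10%, against 0.862% of all genes), and 3 were lower at an unadjusted p under 0.05. At that unadjusted p, 13.8% of all genes were lower. The gene that fell without the block was Hsd17b7, a ketoreductase that acts while methyl groups are removed from the sterol. It read 8.07, 6.21 and 6.84 FPKM in static and 1.73, 2.88 and 2.73 FPKM in FSS. The lowest static library was above the highest FSS library by more than the range within either group. On the log2 scale the difference was -1.23 ± 0.19 without the block (SE; limma adjusted p = 0.0337) and -1.23 ± 0.16 with it (limma adjusted p = 0.00223). When 1 library was left out in turn, the call without the block held only without FSS replicate 3 (adjusted p = 0.0212). It was lost without static replicates 1, 2 and 3 (0.162, 0.107 and 0.0951) and without FSS replicates 1 and 2 (0.148 and 0.116).

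Sqle, squalene epoxidase, a control point of the later pathway, read 31.5, 26.4 and 35.7 FPKM in static and 15.8, 19.0 and 23.6 FPKM in FSS. The groups did not overlap, and the difference was largest in pair 1 (-0.95 log2, against -0.46 and -0.58 in pairs 2 and 3). It fell with the block (limma adjusted p = 0.00573, against 0.138 without). Lss, which folds the epoxide into lanosterol, went from 11.1 ± 1.83 to 7.21 ± 1.62 FPKM (SD, n = 3) and fell with the block (limma adjusted p = 0.00641). Msmo1, a sterol methyl oxidase, went from 46.6, 41.9 and 40.5 FPKM to 34.2, 35.1 and 32.2 FPKM without overlap. Its call with the block (limma adjusted p = 0.0262) was lost with scaling (adjusted p = 0.173).

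Dhcr7, the reductase of the last step on the route through 7-dehydrocholesterol, read 41.7, 52.0 and 26.5 FPKM in static and 68.9, 69.0 and 29.7 FPKM in FSS. Number 3 was low in both groups and showed the smallest difference, at 1.12 times static, against 1.65 and 1.33 times in pairs 1 and 2. It rose with the block (limma adjusted p = 0.0292; 0.0023 with scaling), and without it the adjusted p was 0.634. The difference without the block, 0.42 log2, became 0.16 without static 3, 0.23 without FSS 1 or FSS 2, and 0.82 without FSS 3. The other genes, Fdft1 (squalene synthase), Cyp51 (lanosterol demethylase), Nsdhl, Ebp and Sc5d, had log2 differences of -0.25 to -0.11 and were not called with the block (limma adjusted p between 0.077 and 0.482). The differences of Nsdhl and Sc5d turn positive with scaling (0.03 and 0.06). The reads of Fdft1 may be shared with Ctsb, whose RefSeq span overlaps it, since no use of strand is given in the sources used here.

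**Figure D2:**
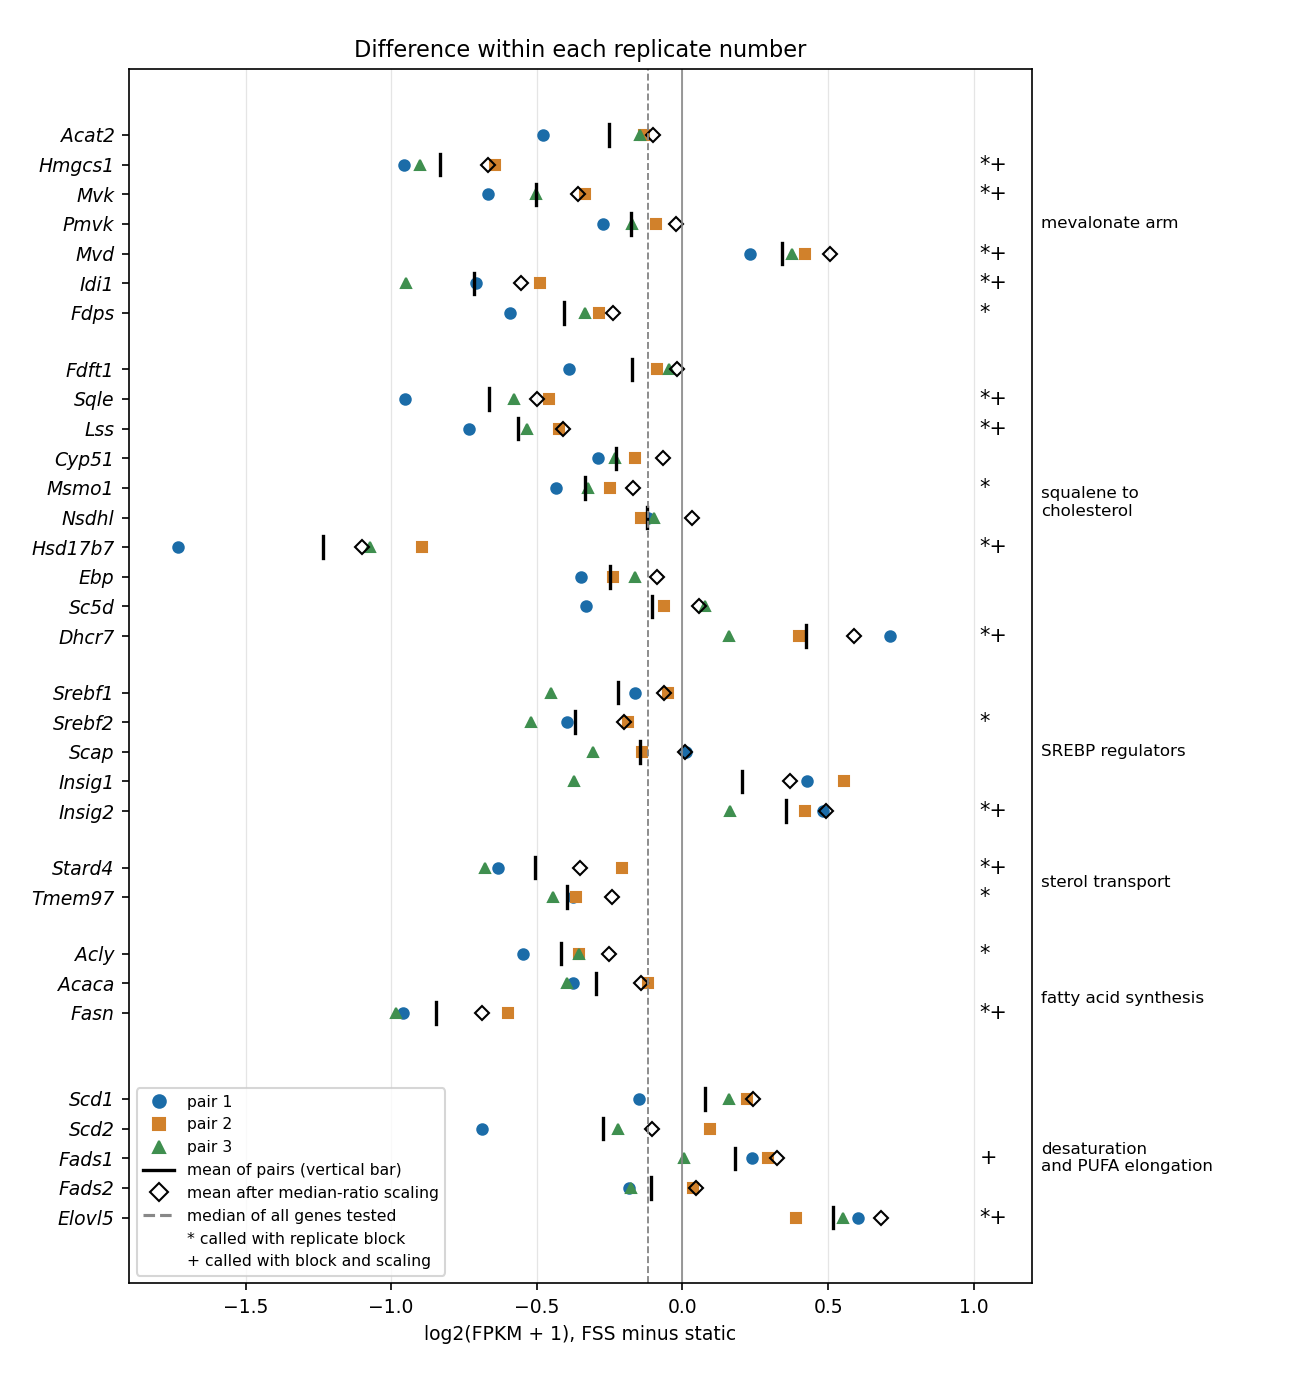
Difference between FSS and static in log2(FPKM + 1) within each replicate number for the 32 members tested, with the mean as a bar and the mean after median-ratio scaling as a diamond; asterisks and plus signs mark limma calls at adjusted p under 0.05 with the block and with block and scaling. The 3 points of Hsd17b7, Hmgcs1, Sqle and Fasn all lie left of the dashed line at -0.12 (the median of all genes), and those of Mvd, Dhcr7, Insig2 and Elovl5 all lie right of 0.

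Of the 5 genes that control the pathway, 1 fell and 1 rose with the block (0 and 1 with scaling), and without the block none passed, also at an unadjusted p under 0.05. With the block each count is 20%, against 25.1% of all genes lower and 7.73% higher. With scaling 0% fell and 20% rose, against 16.3% and 19.6% of all genes. Srebf2, which encodes the SREBP most tied to cholesterol synthesis, read 60.4, 64.6 and 76.1 FPKM in static and 45.6, 56.6 and 52.8 FPKM in FSS. The groups did not overlap, and it fell with the block (limma adjusted p = 0.0241), but not with block and scaling (adjusted p = 0.102). Srebf1, which encodes the SREBP more tied to fatty acids, was lower in every pair (log2 differences of -0.16, -0.05 and -0.45) and was not called (limma adjusted p = 0.155 with the block). Its RefSeq span overlaps that of Rai1. Scap read 10.3 ± 1.58 and 9.15 ± 0.306 FPKM (SD, n = 3; limma adjusted p = 0.311 with the block), and its difference of -0.14 log2 becomes 0.01 with scaling.

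Insig1 and Insig2 encode the proteins that retain SCAP. Insig1 read 43.4, 33.8 and 47.2 FPKM in static and 58.7, 50.1 and 36.3 FPKM in FSS. It was higher under FSS in pairs 1 and 2 (1.35 and 1.48 times) and lower in pair 3 (0.769), and was not called with the block (limma adjusted p = 0.385; 0.0578 with scaling). Without the libraries numbered 3 it was called higher (limma adjusted p = 0.00342 with the block), but that fit leaves out the pair in which it was lower. Insig2 read 4.18, 4.84 and 3.73 FPKM in static and 6.24, 6.81 and 4.30 FPKM in FSS, higher in each pair. It rose with the block (limma adjusted p = 0.0364; 0.00294 with scaling), and the groups overlapped through FSS replicate 3.

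Both genes of sterol handling fell with the block (1 with scaling), as did 25.1% of all genes (16.3% with scaling). Stard4, which carries cholesterol between membranes, read 16.2, 14.8 and 14.5 FPKM in static and 10.1, 12.7 and 8.71 FPKM in FSS. No FSS library reached the lowest static one (limma adjusted p = 0.0163 with the block and 0.0237 with scaling, against 0.186 without the block). Tmem97, the sigma-2 receptor, a membrane protein tied to cholesterol traffic, went from 9.10, 9.71 and 16.5 FPKM to 6.78, 7.31 and 11.9 FPKM. Its ratio was nearly the same in the 3 pairs (0.745, 0.753 and 0.719), whereas its level was highest in number 3 of both groups. It fell with the block (limma adjusted p = 0.0157), with a scaled adjusted p of 0.0501. Without the block its difference, -0.40 log2, became -0.15 without static 3, -0.26 without FSS 1 and -0.62 without FSS 3.

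**Figure D3:**
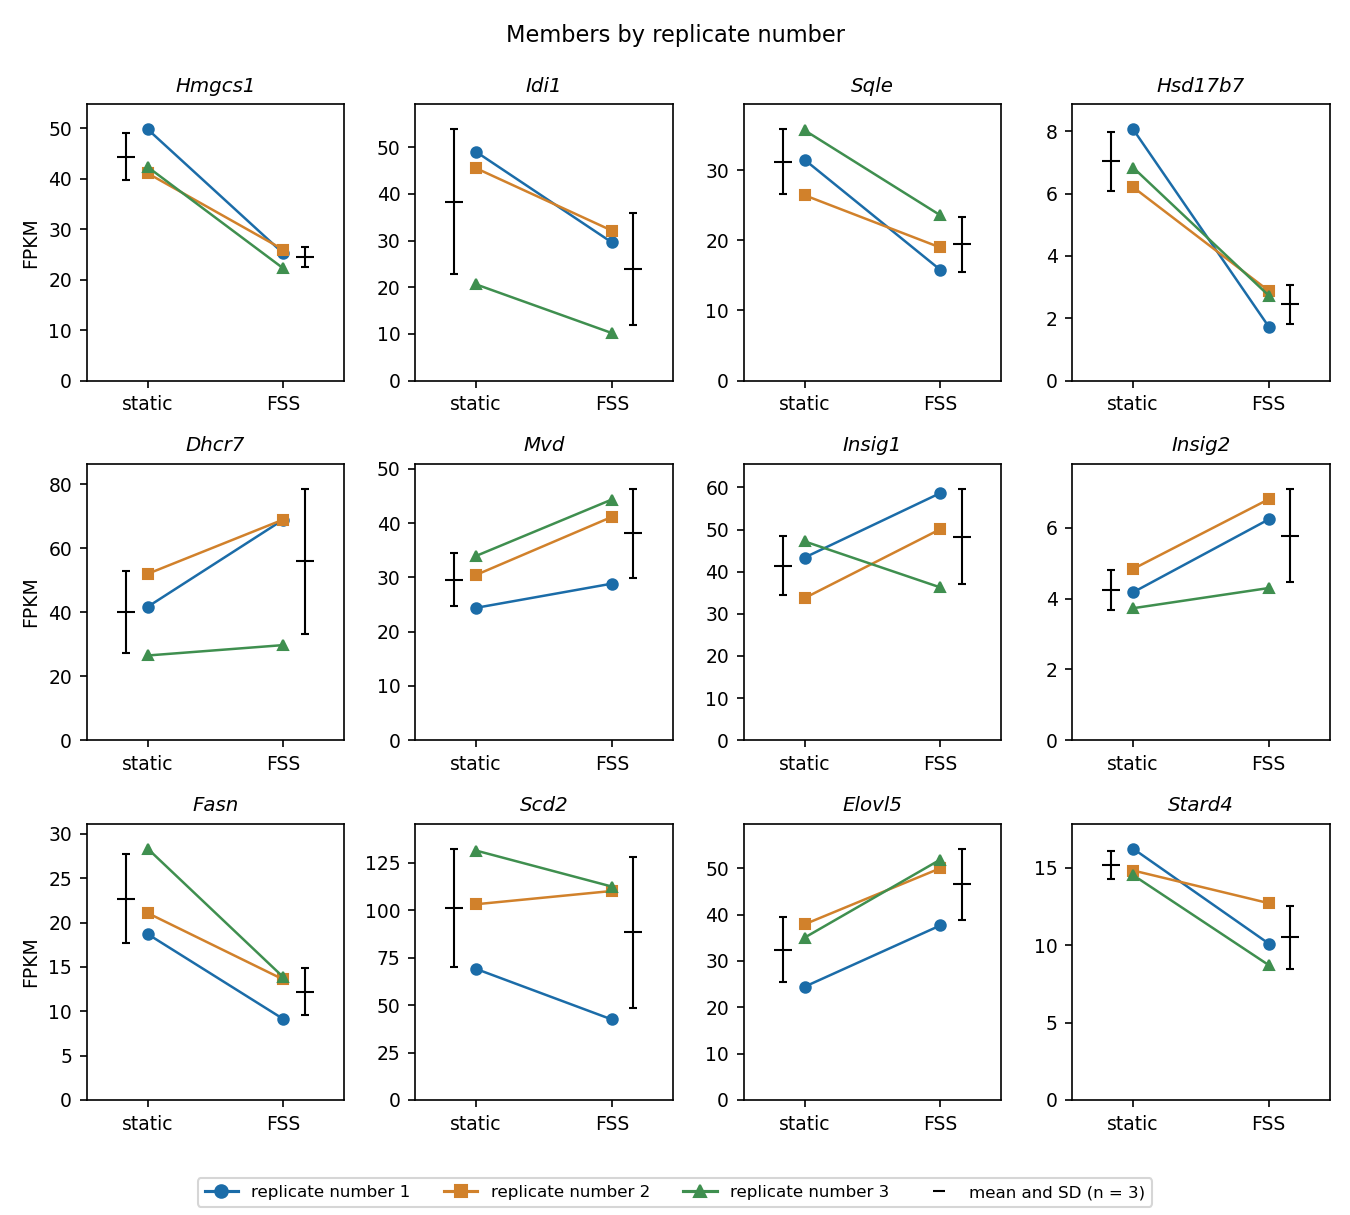
FPKM of 12 members in static and FSS libraries, with lines joining the libraries of one replicate number and black bars giving mean and SD (n = 3). Lines slope down in all 3 numbers for Hmgcs1, Idi1, Sqle, Hsd17b7, Fasn and Stard4 and up in all 3 for Dhcr7, Mvd, Insig2 and Elovl5, while number 3 crosses the others for Insig1.

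In fatty acid synthesis proper, 2 of 3 genes tested fell with the block and none rose (1 and 0 with scaling). Of all genes, 25.1% fell and 7.73% rose with the block (16.3% and 19.6% with scaling). Without the block none passed, with 1 of 3 lower at an unadjusted p under 0.05, against 13.8% of all genes. Fasn, the synthase that builds palmitate, read 18.7, 21.1 and 28.3 FPKM in static and 9.12, 13.6 and 13.8 FPKM in FSS. Each FSS library was below each static one. The log2 value moved by -0.85 ± 0.23 without the block (SE; limma adjusted p = 0.11) and by -0.85 ± 0.11 with it (limma adjusted p = 0.00224). With block and scaling the difference was smaller, -0.69 ± 0.094 (SE; limma adjusted p = 0.00087). Acly, which makes cytosolic acetyl-CoA from citrate and so feeds both pathways, read 79.7, 84.7 and 99.5 FPKM in static and 54.3, 66.0 and 77.6 FPKM in FSS. Its groups did not overlap either, and it fell with the block (limma adjusted p = 0.0105), a call lost with scaling (adjusted p = 0.0767). Acaca, acetyl-CoA carboxylase, which makes malonyl-CoA, gave 15.2 ± 1.11 and 12.3 ± 1.95 FPKM (SD, n = 3; limma adjusted p = 0.058 with the block). Its span overlaps that of Tada2a.

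Of the 5 genes that desaturate fatty acids or elongate polyunsaturated ones, 1 rose with the block and none fell (2 and 0 with scaling). Risers were 20% with the block, against 7.73% of all genes (40% with scaling, against 19.6%). The median of these 5 genes was 0.08 log2 (0.24 scaled). Without the block none passed, with 1 of 5 higher at an unadjusted p under 0.05, against 4.27% of all genes. Elovl5, an elongase of polyunsaturated fatty acids, read 24.4, 37.9 and 35.0 FPKM in static and 37.7, 50.01 and 51.9 FPKM in FSS. FSS was higher by 1.54, 1.32 and 1.48 times in pairs 1 to 3, and the groups overlapped by a narrow margin. The gene rose with the block (limma adjusted p = 0.00599; 0.00103 with scaling), against an adjusted p of 0.276 without it. The difference without the block, 0.52 log2, became 0.33 when static replicate 1 was left out. Fads1, a desaturase of the same route, gave 5.60 ± 1.85 and 6.37 ± 1.36 FPKM (SD, n = 3) and was called higher with block and scaling alone (limma adjusted p = 0.0163, against 0.213 with the block).

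Scd1 and Scd2, desaturases that make monounsaturated fatty acids, were not called. Scd2 read 69.1, 103 and 132 FPKM in static and 42.5, 110 and 113 FPKM in FSS, and Scd1 read 32.6, 43.5 and 44.4 FPKM in static and 29.3, 50.9 and 49.6 FPKM in FSS. For both, and for the desaturase gene Fads2 (6.58, 14.0 and 15.5 FPKM in static; 5.67, 14.4 and 13.6 FPKM in FSS), replicate 1 was the lowest in each group, by more than the difference between FSS and static in that number. Their limma adjusted p-values with the block were 0.592 (Scd1), 0.172 (Scd2) and 0.424 (Fads2). Scd1 and Scd2 are close paralogs, and how reads were divided between them is not given in the sources used here.

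Many members also differed by replicate number. In 14 of 33 the library numbered 3 was the highest in both groups, as for Mvk, Fdps, Ebp, Acly and Fasn, and in 7 it was the lowest in both, as for Idi1, Dhcr7, Insig2 and Stard4. Over all genes tested number 3 was highest in both groups for 25.3% and lowest for 42.1%. The medians of the members were -0.38, -0.14 and -0.32 log2 in pairs 1 to 3, against -0.08, -0.07 and -0.22 for all genes. What the numbers stand for is not stated in the labels.

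Genes of the same pathways outside the 33 were read from the same fits. Without the block none of their 55 tested members passed (limma). At an unadjusted p under 0.05, 4 of them were higher and 8 lower (7.27% and 14.5%, against 4.27% and 13.8% of all genes). Of all genes tested, 25.1% fell and 7.73% rose with the block (16.3% and 19.6% with scaling). Of 7 other sterol synthesis genes 3 fell with the block (42.9%) and none rose (2 and 1 with scaling, 28.6% and 14.3%). Erg28, a scaffold of the demethylation enzymes that include Hsd17b7 and Nsdhl, read 12.8, 13.7 and 18 FPKM in static and 7.54, 8.46 and 12.5 FPKM in FSS. Each FSS library was below each static one, and the gene fell with the block (limma adjusted p = 0.00399). Acat1, a mitochondrial thiolase, and Lbr, a sterol reductase of the nuclear envelope, fell as well (limma adjusted p = 0.0135 and 0.0354), Lbr not with scaling (0.159).

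Of 12 other genes of SREBP control, 4 fell with the block and none rose (4 and 2 with scaling). Fallers were 33.3% of this list, against 25.1% of all genes (33.3% with scaling, against 16.3%). Mbtps1, the protease that makes the first cut of SREBPs, read 12.5, 13.8 and 13.9 FPKM in static and 9.87, 10.2 and 8.77 FPKM in FSS, a separation wider than the range within either group. The limma adjusted p with the block was 0.0149. Erlin1 and Erlin2, proteins of the endoplasmic reticulum membrane, and the ubiquitin ligase gene Rnf139 fell to ratios of 0.723, 0.685 and 0.706 (with the block, limma adjusted p = 0.0195, 0.00676 and 0.0147). Of 12 tested genes (of 19) of other fatty acid synthesis 3 fell with the block and none rose (1 and 0 with scaling): Oxsm, a synthase of mitochondrial fatty acids, Elovl1, an elongase of very long chains, and Mid1ip1, an activator of acetyl-CoA carboxylase (limma adjusted p = 0.0166, 0.0223 and 0.0404). These fallers were 25% of the list, against 25.1% of all genes (8.33% with scaling, against 16.3%). The list thus fell no more often than genes at large.

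Of 6 tested genes (of 8) that make, oxidise or release sterol esters and oxysterols, 2 fell and 2 rose with the block, and the same counts held with scaling. Each count is 33.3% of the list, against 25.1% of all genes lower and 7.73% higher with the block (16.3% and 19.6% with scaling). Ch25h, which makes the oxysterol 25-hydroxycholesterol, read 53.1, 15.6 and 45.4 FPKM in static and 9.19, 5.29 and 8.98 FPKM in FSS. It had 0.206 times the static mean, and its groups did not overlap (limma adjusted p = 0.000855 with the block and 0.0692 without). Lcat, which esterifies cholesterol on lipoproteins, had 1.55 and 0.987 FPKM in static and FSS and fell with the block (limma adjusted p = 0.0323). Nceh1, which releases cholesterol from its esters, read 8.31, 8.59 and 11.7 FPKM in static and 17.1, 16.9 and 14.1 FPKM in FSS, and rose with the block (limma adjusted p = 0.0106). Cyp27a1, another sterol hydroxylase, rose from 1.65 to 2.49 FPKM (limma adjusted p = 0.0454 with the block).

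**Figure D4:**
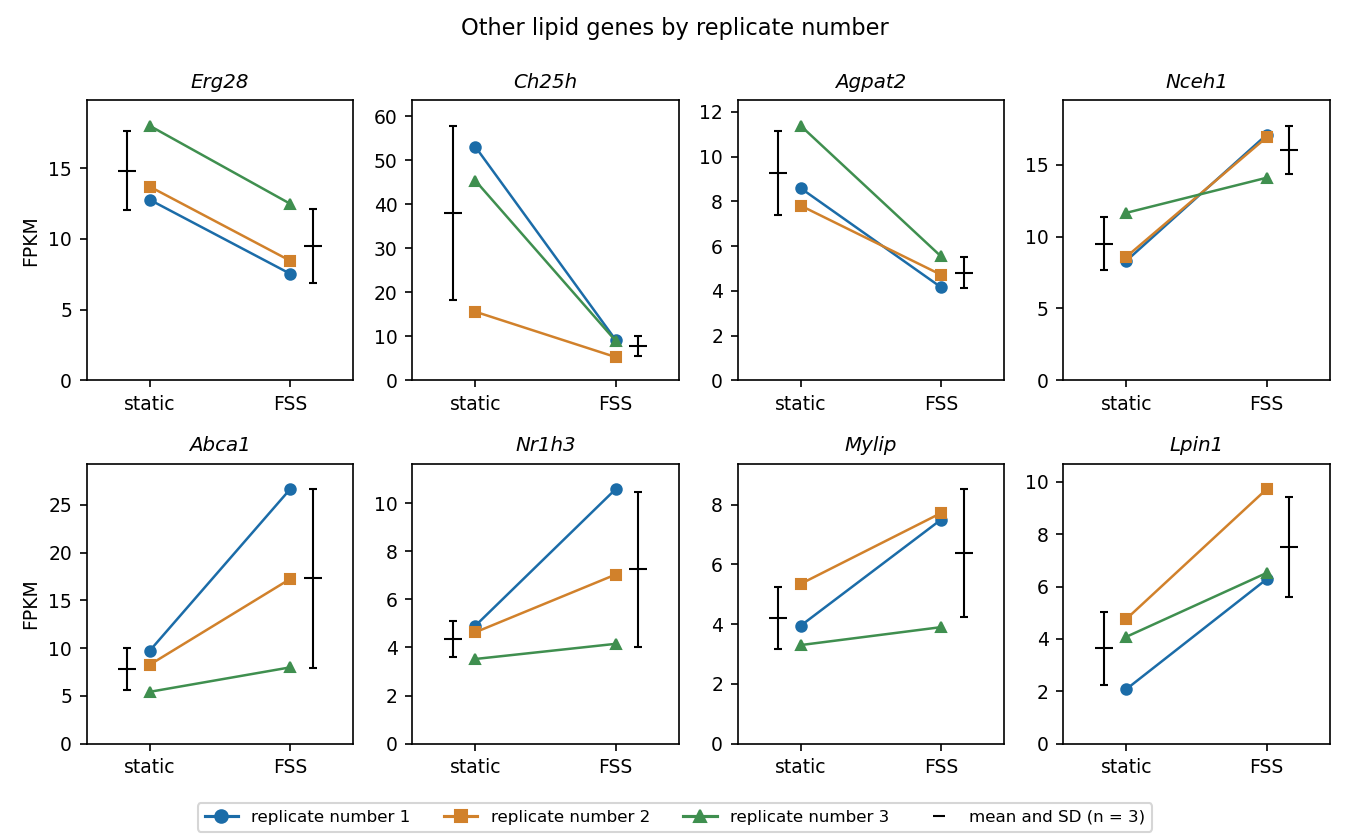
FPKM of 8 lipid genes outside the 33 in static and FSS libraries, joined by replicate number, with black bars for mean and SD (n = 3). All 3 lines fall for Erg28, Ch25h and Agpat2 and rise for Nceh1, Abca1, Nr1h3, Mylip and Lpin1, and number 3 shows the shallowest rise in each of these 5.

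LXR, which senses oxysterols and induces cholesterol export as well as Srebf1, gave a short list in which 3 of 6 genes rose with the block and none fell (5 and 0 with scaling). Risers were 50% of the list, against 7.73% of all genes (83.3% with scaling, against 19.6%). Abca1, the cholesterol exporter, read 9.74, 8.27 and 5.43 FPKM in static and 26.7, 17.3 and 7.99 FPKM in FSS. The ratio was smallest in number 3, and the groups overlapped only through number 3 of FSS (limma adjusted p = 0.005 with the block, 0.268 without). Nr1h3, which encodes LXR-alpha, and Mylip, a ubiquitin ligase that LXR induces, rose to 1.67 and 1.52 times static (with the block, limma adjusted p = 0.0256 and 0.026). Of 12 genes of acyl-CoA and glycerolipid synthesis 2 rose and 3 fell with the block (5 and 2 with scaling). With the block these are 16.7% and 25%, against 7.73% and 25.1% of all genes. With scaling they are 41.7% and 16.7%, against 19.6% and 16.3%. Lpin1, a phosphatidate phosphatase, rose from 3.64 to 7.51 FPKM, and Agpat2, an acyltransferase that makes phosphatidate, fell from 9.26 to 4.81 FPKM, neither with overlap between groups (limma adjusted p = 0.0035 and 0.00211 with the block). Gpam, the acyltransferase that starts glycerolipid synthesis, and Lpcat3, which remodels phospholipids, fell with the block (limma adjusted p = 0.0148 and 0.0181), Lpcat3 not with scaling (0.0992).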

How the data were processed

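RNA sequencing of 3 static and 3 FSS libraries was given by the authors as FPKM per gene, a unit inferred from the deposited values. HISAT and Bowtie2 are named per the submitters' processing notes; the build, annotation and quantifier, and whether strand was used, were not given in the sources used here. The 6 library files were identical to the table of the series (22899 genes, 4828 blank in all libraries). Whole reads could not be recovered from the values, so the depth of each library is unknown and counting intervals were not computed.

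Genes with at least 1 FPKM in at least 3 libraries (10899) were tested as log2(FPKM + 1) with limma 3.58.1 (R 4.3.3; trended variance, Benjamini-Hochberg over all tested genes, two-sided, threshold 0.05). Log2 differences and standard errors are on that scale, which understates the change of low genes; ratios and means are of FPKM. The main design had no block. The alternatives were the replicate number as a block, median-ratio scaling, equal library totals, no filter, a pseudocount of 0.1 FPKM, the stricter threshold 0.01, both libraries numbered 3 left out, and each library left out in turn. Deviations from group means correlated at 0.792, 0.664 and 0.866 between libraries of the same number and at -0.781 to 0.279 otherwise, so the numbers were taken to pair the libraries; the pairing comes from the data, not from the labels. The fit was also run on simulated data with 200 genes changed. That simulation held no shift of a whole group, so it cannot show calls that such a shift would make. All members are named; of the other lipid lists, at most 4 called genes each, by smallest adjusted p with the block. Promoter windows come from RefSeq (GRCm38.p6). The members and lists were chosen with earlier results of these data known. One gene of the other lipid lists is not reported here.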

Additional observations from a re-analysis of the deposited data

How the results depend on the processing

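With the replicate block, which uses the pairing, counts of genes past the threshold moved most: over all genes from 93 higher and 94 lower to 842 and 2739, to 2132 and 1775 with median-ratio scaling added, and to 1526 and 2608 without both libraries numbered 3. Among the members, 1 lower and none higher became 13 and 4, then 8 and 5 with scaling added, and 14 and 5 without both libraries numbered 3. Without the block, all genes gave 14 higher and 7 lower with no filter, 4 and 1 at a threshold of 0.01, 154 higher with median-ratio scaling and 45 lower with equal library totals; the members gave 0 lower with no filter and 0 at 0.01. Leaving out 1 library at a time gave 3 to 254 higher and 0 to 161 lower genes, 0 to 2 lower members, and a member median between -0.30 and -0.15 log2. That median, -0.25, was -0.094 with median-ratio scaling, with or without the block. Scaling turned the differences of Nsdhl (0.033), Sc5d (0.056), Scap (0.0096) and Fads2 (0.047) positive, with or without the block. Leaving out 1 library gave Scd1 values of -0.063 to 0.33, negative without static replicate 1, FSS replicate 2 or FSS replicate 3. It gave Scd2 values of -0.52 to 0.18, positive without FSS replicate 1, and Fads2 values of -0.46 to 0.28, positive without static replicate 2, static replicate 3 or FSS replicate 1. The cause of these changes was not tested. Of the 17 members called with the block, the difference of 7 moved by over 1.5 times without 1 library: Dhcr7 (0.16 to 0.82), Idi1 (-1.10 to -0.21), Mvk, Mvd, Fdps, Tmem97 and Elovl5. A pseudocount of 0.1 kept the direction and call of all 53 genes followed. Unknown depth limits what can be said of genes near 1 FPKM.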
